A study of Mus musculus with 4 samples.

Results

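The keratins that mark the basal and the suprabasal layers of mouse epidermis were followed in 4 single-cell RNA libraries, 1 day and 1 week after ΔNp63 ablation. The 7 genes were taken by name from a fixed list, which was set with earlier results of these data known. Krt5, Krt14 and Krt15 were the basal keratins, and Krt1, Krt10, Krt2 and Krt77 the suprabasal keratins, out of 32285 genes listed in each matrix. All 7 were found in all 4 matrices, and 6 of 7 had a mean of at least 10 CPM (a gene's UMIs per 1000000 gene UMIs of the cells summed) in each time point's libraries. Krt2 did not, so it stays out of the counts of genes past 2-fold and its UMIs are given. ΔNp63 is an isoform of the transcription factor p63 that basal keratinocytes make. Control mice were DNp63fl/fl and ablated mice DNp63fl/fl;K14-CreT2, and all groups received 200 mg/kg tamoxifen by gavage daily for 5 days. The Cre is driven by the keratin 14 promoter, the promoter of a member gene, in basal keratinocytes. Back skin epidermis came from mice of 2 to 17 months and both sexes. The labels do not say which ages, sexes or trypsin digestion (cold overnight, or warm and short) went into which library, or how many animals. The 1-day libraries were made with a 10x Genomics 3′ kit and the 1-week libraries with a 5′ kit, so ablated was compared with control only within a time point. Each group was 1 library. So nothing here could be tested against replicates, and all 95% intervals cover counting error only.

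Keratins build intermediate filaments from obligate pairs of a type I and a type II protein. Basal keratinocytes, which sit on the basement membrane and divide, carry Krt5 (type II) with Krt14 (type I), and many of them, with the hair follicle bulge, also carry Krt15 (type I). On leaving the basal layer, keratinocytes of the spinous layer switch to Krt1 (type II) with Krt10 (type I). Krt2 and Krt77 are further type II keratins of suprabasal cells, Krt2 of the uppermost living layers.

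Trp63, the gene that encodes p63, was at 395 CPM (control) and 114 CPM (ablated) at 1 day and at 425 and 141 CPM a week after ablation. The log2 ratios of ablated over control were -1.80 and -1.59. A count per gene does not separate the deleted isoform from the others and does not check the deleted exon. The libraries held 68191870 to 179736563 gene UMIs over 18413 to 33552 barcodes, and 15626 to 23651 cells were kept per library with median depths of 1381 to 4130 UMIs. The lowest UMI count among deposited barcodes was 500 for either control and 1368 and 1059 for the ablated libraries (1 day, 1 week). The 1-day pair shared 299 barcodes, the 1-week pair 661, and pairs across time points 9 to 18. At 1 day both matrices list 4 antibody hashtags, of which 3 carried cells. The labels do not say what a hashtag marks, and no hashtag stood out in 35.8% of control and 58.8% of ablated cells. These are called cells without a hashtag below, although barcodes with even counts of all 3 are among them. Xist, the RNA of the inactive X chromosome, had 4 UMIs (control) and 5 UMIs (ablated) at 1 day, beside 170 and 175 CPM of 4 Y-linked genes, although the labels give both sexes in equal parts. The 1-week libraries held both kinds of cell, and their cells with Xist UMIs only and with Y-linked UMIs only are given apart below. Clusters named as other cell types made up 5.11% to 8.17% of kept cells in the 4 libraries. At 1 week this leaves out shallow clusters led by markers of other cell types. Among them, those led by Cd207, Col1a1, Dct and Hbb-bs held 1592, 787, 768 and 0 control and 33, 1, 7 and 294 ablated cells. The 7 keratins together made up 22395 and 17838 CPM at 1 day (control, ablated) and 27984 and 19378 CPM at 1 week.

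The type I members lie on chromosome 11 and the type II members on chromosome 15 of GRCm38, all on the minus strand in GENCODE M21. Krt14 spans chr11:100203162-100207548, Krt15 chr11:100131758-100135928 and Krt10 chr11:99385254-99389364. Krt5 spans chr15:101707070-101712898, Krt1 chr15:101845426-101850794, Krt2 chr15:101810689-101818169 and Krt77 chr15:101858731-101869705. Krt14 shares long identical coding stretches with the wound-type keratins Krt16 and Krt17, which were higher in the ablated libraries (below). The longest of each is printed because a read inside it cannot be told from the copy's, in lower case throughout since every base is shared.
Krt14 and Krt16, 134 bases in exon 1 of Krt14, chr11:100207017-100207150, minus strand: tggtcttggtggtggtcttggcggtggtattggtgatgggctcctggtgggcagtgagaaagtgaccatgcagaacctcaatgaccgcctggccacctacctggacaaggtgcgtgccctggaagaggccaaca
Krt14 and Krt17, 71 bases in exon 6 of Krt14, chr11:100204114-100204184, minus strand: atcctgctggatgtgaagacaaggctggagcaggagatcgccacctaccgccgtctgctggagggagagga
The Krt14 and Krt16 stretch starts 399 bases into the Krt14 transcript, near the end that the 5′ kit reads. The Krt14 and Krt17 stretch ends 319 bases before the transcript's end, near the end that the 3′ kit reads. Of all 60-base windows in the first 500 bases of the Krt14 transcript, 23.1% also occur in another gene (Krt16), and in its last 500 bases 5.21% do (Krt17). The share was 10.7% for the first 500 bases of Krt5 (Krt6a and the predicted gene Gm5478), 0% for its last 500 bases, and 0% at both ends of Krt15, Krt1, Krt10, Krt2 and Krt77. How the authors' counting divided such reads is not given in the sources used here, so Krt14 levels at both times and Krt5 levels at 1 week carry this uncertainty. No shared window was found at the end read for Krt5 at 1 day or for the other 5 members.

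Of the basal keratins, Krt5 and Krt15 were lower after ablation at both times, while Krt14 was lower at 1 day and higher at 1 week. Krt5, control against ablated, stood at 2045 against 964 CPM at 1 day and at 6360 against 3950 CPM at 1 week. Its log2 ratios were -1.08 (95% interval -1.10 to -1.07) and, at 1 week, -0.69 (-0.69 to -0.68). Cells with 1 hashtag held 1967, 2169 and 1766 CPM of Krt5 in the control and 763, 993 and 916 CPM after ablation. All 3 ablated hashtags were below all 3 control hashtags for Krt5. At 1 week Krt5 was also lower in both kinds of cell, from 6163 to 3231 CPM in cells with Xist UMIs only and from 6341 to 4418 CPM in cells with Y-linked UMIs only.

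Krt14, the type I partner of Krt5, stood at 4888 and 3622 CPM at 1 day (control, ablated) and at 6535 and 8852 CPM at 1 week. Its log2 ratio was -0.43 (-0.44 to -0.43) at 1 day and 0.44 (0.43 to 0.44) at 1 week. The control hashtags held 5167, 5030 and 4490 CPM of Krt14 and the ablated hashtags 2974, 4346 and 2658 CPM. The groups did not overlap, although the second ablated hashtag came close to the lowest control one. In cells with Xist UMIs only, 1-week Krt14 was at 6780 CPM in control and 9089 CPM in ablated cells, and in cells with Y-linked UMIs only at 5966 and 10375 CPM. Both kinds of cell thus had a higher Krt14 level in the 1-week ablated library.

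Krt15, a type I keratin of basal and bulge cells, stood at 2450 (control) and 1161 CPM (ablated) at 1 day, with 4739 and 2096 CPM at 1 week. The log2 ratios of Krt15 were -1.08 (-1.09 to -1.07) and -1.18 (-1.19 to -1.17). The 3 control hashtags lay close together at 1926, 1899 and 1872 CPM, and the ablated ones at 923, 585 and 1102 CPM, with no overlap. Krt15 was at 4281 CPM in control cells without a hashtag, above every hashtag, and at 1530 CPM in such ablated cells. At 1 week Krt15 was lower in cells with Xist UMIs only (4731 to 1037 CPM) and in cells with Y-linked UMIs only (3908 to 1688 CPM). With the mean of CPM per cell in place of summed UMIs, the 1-week log2 ratio of Krt15 was -0.95, short of 2-fold.

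Among the suprabasal keratins, Krt1 and Krt2 were lower in the ablated library at both times, Krt10 was slightly lower at 1 day and much lower at 1 week, and Krt77 was higher at 1 day and lower at 1 week. Krt1 levels were 2263 CPM (control) and 1410 CPM (ablated) at 1 day, then 2346 and 1323 CPM at 1 week. The log2 ratios of Krt1 were -0.68 (-0.69 to -0.67) and -0.83 (-0.84 to -0.81). By hashtag, Krt1 was at 3288, 1906 and 2088 CPM among control cells and at 997, 2626 and 1020 CPM among ablated cells. These groups overlapped, since the second ablated hashtag exceeded 2 of the 3 control ones. At 1 week the log2 ratio of Krt1 was -0.19 in cells with Xist UMIs only and -0.94 in cells with Y-linked UMIs only.

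Krt10, the type I partner of Krt1, was the member with the highest UMI level at 1 day, with 7126 CPM (control) and 6132 CPM (ablated), and its 1-week levels were 5334 and 2043 CPM. The log2 ratios were -0.22 (-0.22 to -0.21) and -1.38 (-1.39 to -1.38). The 1-day direction rested on how cells were weighted, since the mean of CPM per cell gave a log2 ratio of 0.30, and the hashtags overlapped (8663, 7496 and 8204 CPM in control, 5829, 8605 and 5993 CPM in ablated cells). In cells without a hashtag Krt10 was higher in the ablated library, at 3599 and 5198 CPM. At 1 week Krt10 went from 4279 to 3913 CPM in cells with Xist UMIs only and from 8384 to 1155 CPM in cells with Y-linked UMIs only, log2 ratios of -0.13 and -2.86. The 1-week difference in Krt10 was thus close to nil in the one kind of cell and over 2-fold in the other.

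Krt77 stood at 3608 CPM (control) and 4546 CPM (ablated) at 1 day, giving a log2 ratio of 0.33 (0.33 to 0.34). By hashtag it was at 3467, 4401 and 5104 CPM (control) and 4245, 6184 and 4679 CPM (ablated), and the groups overlapped. Cells without a hashtag held 1298 and 3910 CPM of Krt77, a log2 ratio of 1.59. The mean of CPM per cell put the 1-day log2 ratio of Krt77 at 1.00. The 1-week levels of Krt77, 2655 CPM (control) and 1113 CPM (ablated), gave a log2 ratio of -1.25 (-1.27 to -1.24). Like Krt10, Krt77 differed between the kinds of cell at 1 week, with 2026 and 2270 CPM in cells with Xist UMIs only and 4245 and 586 CPM in cells with Y-linked UMIs only. Its log2 ratio was 0.16 in the first and -2.86 in the second.

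Krt2, the keratin of the uppermost living layers, was scarce in all 4 libraries. At 1 day it had 1684 UMIs (15.1 CPM) in control and 280 UMIs (2.86 CPM) in ablated cells, and at 1 week 1035 UMIs (14.4 CPM) and 23 UMIs (0.394 CPM). The log2 ratios were -2.40 (-2.59 to -2.22) and -5.19 (-5.85 to -4.59). All 3 ablated hashtags (4.29, 3.67 and 2.35 CPM) were below all 3 control hashtags (15.2, 28.5 and 11.4 CPM). At 1 week, cells with Xist UMIs only held 69 UMIs of Krt2 (control) and 9 UMIs (ablated), and cells with Y-linked UMIs only held 464 and 1. In 1-day cells without a hashtag, Krt2 (log2 ratio -0.89), Krt5 (-1.12), Krt14 (-0.33) and Krt1 (-0.41) kept the sign of the whole library.

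**Figure D1:**
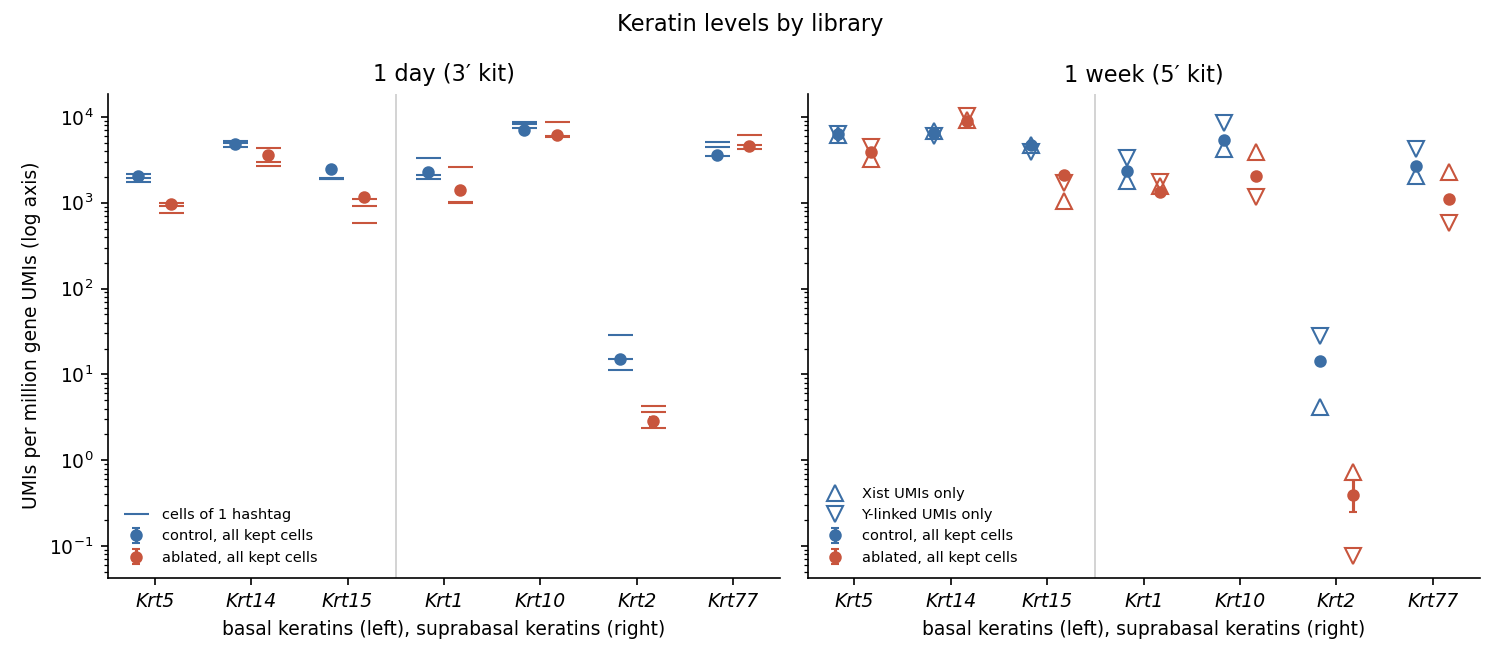
Level of each keratin in CPM (log axis) in control (blue) and ablated (red) libraries at 1 day (left) and 1 week (right); filled circles are all kept cells with 95% counting intervals, dashes are cells of 1 hashtag and open triangles cells with Xist or Y-linked UMIs only. Krt5 and Krt15 were lower in the ablated library at both times, and the triangles for Krt10 and Krt77 at 1 week lie apart (Krt10 at 3913 and 1155 CPM in the ablated library).

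These member counts were read against all genes. At 1 day, 2 of the 6 eligible keratins (Krt5 and Krt15) were at least 2-fold lower in the ablated library, where 1.3% of 6986 eligible genes were, and none was at least 2-fold higher, against 3.51% of genes. At 1 week, 3 of 6 (Krt15, Krt10 and Krt77) were at least 2-fold lower against 2.43% of 8164 genes, and none was 2-fold higher against 5.68%. Both shares of lower members exceed the background. Members were chosen with earlier results of these data known, so these counts describe the data and are not independent support. The same holds for the gene lists below. The hashtag comparison did not stand out as clearly: 4 of 7 members (Krt5, Krt14, Krt15 and Krt2) had all 3 ablated hashtags below all 3 control hashtags, which held for 21.6% of all genes tested in this way, and 0 of 7 had them above, against 20% of genes. Krt2, left out of the 2-fold counts, was eligible here only through the control. It was under 10 CPM in every ablated hashtag, so the filter favoured its count as below. Hashtags of 1 library share its preparation and are not replicates.

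The balance of keratin UMIs was more suprabasal in the ablated library at 1 day and more basal at 1 week. Krt5, Krt14 and Krt15 gave 41.9% of the 7-keratin UMIs of control cells at 1 day (41.8% to 42.0%, exact binomial) and 32.2% (32.1% to 32.3%) of those of ablated cells, which is -9.68 percentage points. The 1-week basal share was 63.0% (62.9% to 63.1%) for control and 76.9% (76.8% to 77.0%) for ablated cells, which is 13.9 points. The 1-day share was 37.0%, 39.7% and 34.5% in the control hashtags and 29.6%, 25.4% and 28.6% in the ablated ones, with no overlap, and 63.9% and 38.5% in cells without a hashtag. Averaging the share over cells gave a 1-day difference of -16.8 points. Clusters with hardly any control cells had unlike basal shares at 1 day, 14.4% in the Slc6a14-led, 7.28% in the Sprr2d-led and 66.3% in the Krt8-led cluster. Summed over the 13 keratinocyte classes with at least 100 cells in both libraries, the basal share was 41.7% (control) and 44.2% (ablated), so the 1-day direction turned without the other clusters. The libraries fill these classes unevenly (4819 and 586 basal keratinocyte-like, 3786 and 331 Mt4-led cells), and within them the ablated share was lower in 8 of 13 and higher in 5. It was 74.96% and 29.2% in the Fos-led, 83.2% and 44.7% in the sebaceous gland-like and 97.3% and 90.6% in the cycling-like class. Over 4 such classes at 1 week it was 95.8% and 97.6%. In the same 1-day classes the log2 ratio was -0.75 for Krt5 and -0.62 for Krt15, both short of 2-fold. It was -1.46 for Krt1, -0.81 for Krt10 and -0.20 for Krt77, which turned its direction. Krt15 was also short of 2-fold in the 1-week classes, at -0.81. In summed tissue, fewer cells of a type and less RNA per cell cannot be told apart.

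At 1 week the direction of the basal share differed between the kinds of cell. In cells with Y-linked UMIs only the share was 50.4% (control) and 82.6% (ablated). In cells with Xist UMIs only it was 68.6% and 63.3%, the opposite order. These groups held 1349 and 750 cells (Y-linked only) and 2035 and 868 cells (Xist only), all of at least 3000 UMIs. Control and ablated median depths were 9501 and 12838 UMIs (Y-linked only) and 6713 and 11974.5 UMIs (Xist only). They were 6470 and 7978.5 UMIs in all cells of at least 3000 UMIs. Another 634 control and 121 ablated cells of that depth held both Xist and Y-linked UMIs and were in neither group. A further 3073 control and 1725 ablated cells of that depth could not be assigned. Whether the kinds of cell also differ in age, digestion or animal cannot be told apart.

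A per-cell view was taken after thinning every cell to 2000 UMIs and keeping cells with at least 5 UMIs of the 7 keratins. A cell was called mostly basal with over 80% basal keratin UMIs, mostly suprabasal with under 20%, and mixed between. At 1 day, 62.3% (61.6% to 63.0%) of 17706 control cells and 33.3% (32.7% to 34.0%) of 18587 ablated cells were mostly basal. Mixed cells were 12.3% (control) and 32.9% (ablated), and mostly suprabasal cells 25.4% and 33.7%. Of the 5958 mixed cells in ablated keratinocyte clusters, 30.03% were in the Krt8-led, 18.4% in the Slc6a14-led and 15.8% in the mt-Nd6-led cluster, which had 1, 1 and 119 control cells. In the 13 classes with at least 100 cells in both libraries, mixed cells were 12.2% and 30.9% and mostly basal cells 62.2% and 48.0%. Mostly suprabasal cells were 25.6% and 21.1% in these classes, the opposite order to that over all cells. The mixed share was higher in the ablated library in 11 of these classes and lower in 2. It was 5.26% and 8.48% in bulge-like cells. The 2 lower classes were the upper hair follicle-like (47.3% and 44.5%) and the mt-Nd6-led (84.8% and 71.6%). The mt-Nd6-led class, 1 of the 13, held 943 mixed ablated cells, beside 2874 over all 13 classes. Without thinning, mixed cells were 13.1% and 32.7%. The hashtags gave mostly basal shares of 54.2%, 61.8% and 57.8% (control) and 34.1%, 32.0% and 34.8% (ablated), and mixed shares of 12.6%, 11.8% and 12.8% against 28.3%, 26.0% and 28.2%. On this measure every ablated hashtag had fewer mostly basal and more mixed cells than every control hashtag. Barcodes with 2 hashtags, which may hold more than 1 cell, were mixed in 15.8% (13.3% to 18.7%) of control and 34.8% (31.7% to 38.0%) of ablated cells, above every share in barcodes with 1 hashtag of the same library. Barcodes without a hashtag were mixed in 12.8% and 36.3%, the ablated share above that with 2 hashtags.

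**Figure D2:**
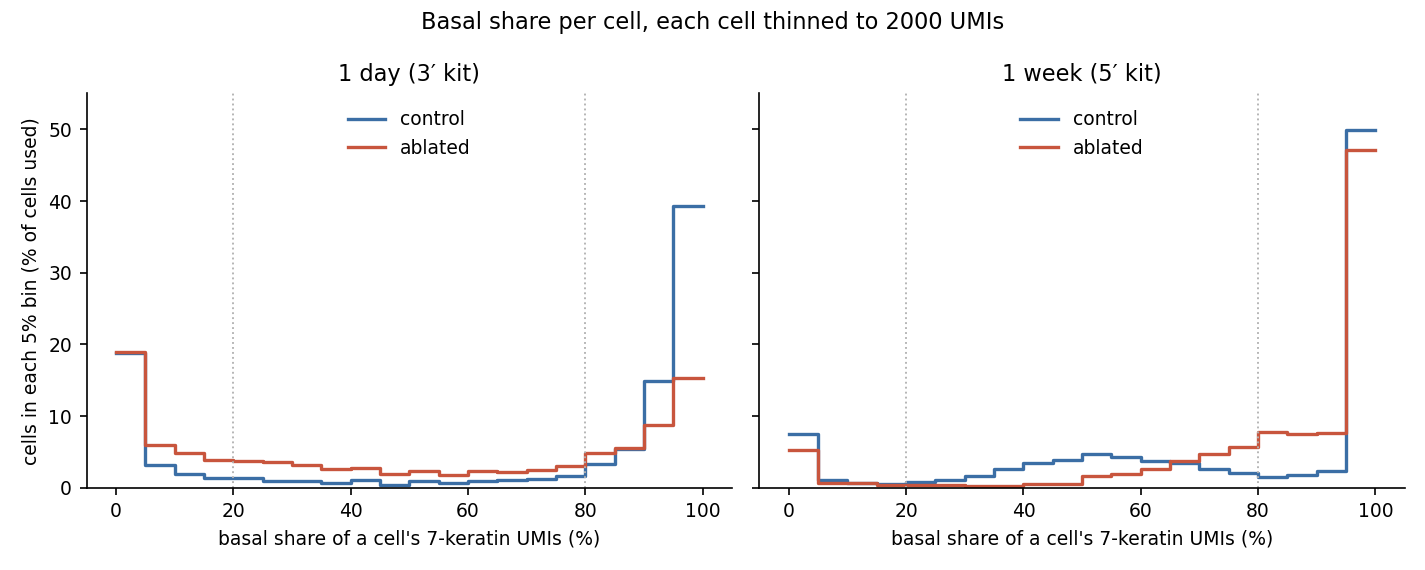
Histogram of the basal share of each cell's 7-keratin UMIs (5% bins) as a percentage of the cells used, control in blue and ablated in red, with dotted lines at 20% and 80%. At 1 day the bin above 95% held 39.4% of control and 15.3% of ablated cells, and the bins between the lines were higher in the ablated library.

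The pattern differed at 1 week. Mostly basal cells were 55.4% (54.3% to 56.5%) of 7783 control cells and 69.0% (67.6% to 70.3%) of 4646 ablated cells, mixed cells 34.8% and 24.0%, and mostly suprabasal cells 9.84% and 6.995%. Thinning left out 11421 control and 10444 ablated cells as too shallow. In clusters set aside for a median under 2500 UMIs, which held 58.1% of control and 68.6% of ablated cells, mixed cells were 83.6% and 43.1% of the cells deep enough to use. In keratinocyte clusters outside these, mixed cells were 27.4% and 15.6% and mostly basal cells 61.4% and 74.2%. These differences rested on a Skint5-led cluster of 1149 control and 5 ablated cells, in which 98.4% of control cells were mixed. Without it, mixed cells were 13.2% and 15.6%, the opposite order, and mostly basal cells 73.3% and 74.2%. These shares still hold clusters of only 1 library. Mixed cells were 86.2% to 100% in the Crabp1-, Iglv2-, Serpina12- and Mylk-led clusters (control only). They were 31.4% to 85.7% in the Aox4-, Cfd-, Klk13- and Lce3d-led clusters (ablated only). Over the 4 classes with at least 100 cells in both libraries, mixed cells were 4.97% (control) and 3.08% (ablated). The mixed share was lower in the ablated library in 3 of these classes and higher in 1. Cells with Xist UMIs only were mostly basal in 69.1% (control) and 61.0% (ablated), and cells with Y-linked UMIs only in 62.3% and 83.7%.

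Cells carrying both Krt14 and Krt10 were counted beside cell types that should lack them. At least 3 UMIs of each gene, after thinning, were present in 7.87% (7.49% to 8.27%) of control and 29.97% (29.3% to 30.6%) of ablated cells at 1 day. The 1-week shares had the opposite order, 30.8% (29.8% to 31.8%) and 22.6% (21.5% to 23.8%). That order turned in 1-week keratinocyte clusters without the Skint5-led cluster, at 9.58% and 14.5%. Of the 4 classes held by both 1-week libraries, 3 had a higher share in the ablated library and 1 a lower one, and summed they gave 1.51% and 0.815%. In T cell-like clusters, which should lack both keratins, the 1-day share was 1.10% (0.0278% to 5.97%) and 19.6% (15.1% to 24.8%). The T cell-like cells deep enough to thin had median depths of 3003 and 3890 UMIs, beside 4606 and 3789 UMIs over all clusters. Thinning left out 660 of 751 control and 127 of 402 ablated T cell-like cells as too shallow, and the control share was 1 cell. Before this cut the T cell-like median depths were 1239 and 2843.5 UMIs. The T cell-like clusters also went from 798 to 4317 CPM of Krt10, from 408 to 2910 CPM of Krt77 and from 2177 to 3069 CPM of Krt14 at 1 day. Fibroblast-like clusters went the same way, from 1473 to 4544 CPM of Krt10 and from 1152 to 3024 CPM of Krt14, and all clusters of other cell types together held 978 and 3119 CPM of Krt10. Langerhans or dendritic cell-like clusters were at 438 and 474 CPM of Krt10, and other classes of the 1-day ablated library were also far below the T cell-like level of Krt10, with 425 CPM in bulge-like and 469 CPM in cycling-like cells. The share of cells with both keratins was 3.52% and 3.97% in bulge-like, 9.56% and 9.59% in upper hair follicle-like and 5.69% and 7.28% in basal keratinocyte-like cells. It was 6.19% and 38.4% in sebaceous gland-like, 15.6% and 41.0% in Fos-led and 11.0% and 27.4% in granular-like cells, and over the 13 classes it was higher in the ablated library in 11 and lower in 2. Barcodes with 2 hashtags carried both keratins in 15.3% of control and 38.9% of ablated cells, and those with 1 hashtag in 8.32%, 6.64% and 6.55% against 23.2%, 32.5% and 19.9%. The part of free RNA or of joined cells in the mixed shares was not tested. At 1 week Krt10 was at 846 and 95.1 CPM and Krt14 at 391 and 420 CPM in T cell-like clusters. All clusters of other cell types together held 786 and 974 CPM of Krt10 and 1567 and 2929 CPM of Krt14 at that time, beside 2043 CPM of Krt10 and 8852 CPM of Krt14 in all ablated cells.

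Members of a pair did not differ by the same factor. Krt5 UMIs per Krt14 UMI were 0.418 (control) and 0.266 (ablated) at 1 day, and 0.973 and 0.446 at 1 week. The hashtags gave 0.381, 0.431 and 0.393 (control) against 0.256, 0.228 and 0.344 (ablated), without overlap. The 1-week ratio of Krt5 to Krt14 was 0.909 and 1.06 in control cells with Xist and with Y-linked UMIs only, and 0.356 and 0.426 in the ablated ones. The ablated library was therefore lower on this ratio in every such split. The ratio sets UMIs of one gene against UMIs of another and compares libraries of 1 kit, not the amounts of protein. The 1-day libraries count 3′ ends and the 1-week libraries 5′ ends, so its level is not compared across times.

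Per cell, Krt14 without Krt5 was more frequent after ablation. Of cells with at least 5 Krt14 UMIs after thinning, 4.23% (3.85% to 4.63%) of 10429 control cells had no Krt5 UMI at 1 day, beside 26.5% (25.6% to 27.4%) of 10084 ablated cells. The 1-week shares were 1.74% of 5919 and 11.1% of 3866 cells. In the 1-day hashtags they were 7.23%, 2.72% and 3.55% (control) and 31.3%, 33.3% and 18.2% (ablated). Every ablated hashtag was above every control hashtag on this share. It also depends on how many keratin UMIs a cell holds, with 1-day medians after thinning of 35 (control) and 28 (ablated). The share need not follow the ratio of Krt5 to Krt14. In 1-day basal keratinocyte-like cells, where that ratio was higher after ablation (below), the share was 0.422% and 2.36%. In sebaceous gland-like cells it was 48.4% and 44.4%, the opposite order.

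Within clusters the ratio of Krt5 to Krt14 varied widely. Its lowest 1-day value was 0.0582 in the 452 ablated cells of a Cstdc5-led cluster, which also held 117 control cells. Clusters made almost wholly of ablated cells were low too, with 0.110 in a Slc6a14-led and 0.102 in a Sprr2d-led cluster at 1 day (3815 and 1971 ablated cells, 1 and 3 control cells). The lowest 1-week values were 0.0677 in 77 ablated sebaceous gland-like cells, beside 120 such control cells, and 0.0712 in a Klk13-led cluster of 76 ablated cells. The Krt8-led cluster of 3748 ablated cells and 1 control cell at 1 day was at 0.233. A cluster from mostly 1 library may be that library rather than a cell type. Hair follicle bulge-like cells, present in all libraries, went from 0.760 to 0.646 at 1 day and from 2.56 to 1.28 at 1 week. Basal keratinocyte-like cells at 1 day went the other way, with 0.353 (control) and 0.575 (ablated) from 4819 and 586 cells. So did the 1-day Mt4-led cluster (0.689 and 1.55) and, slightly, the sebaceous gland-like cells (0.145 and 0.163).

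**Figure D3:**
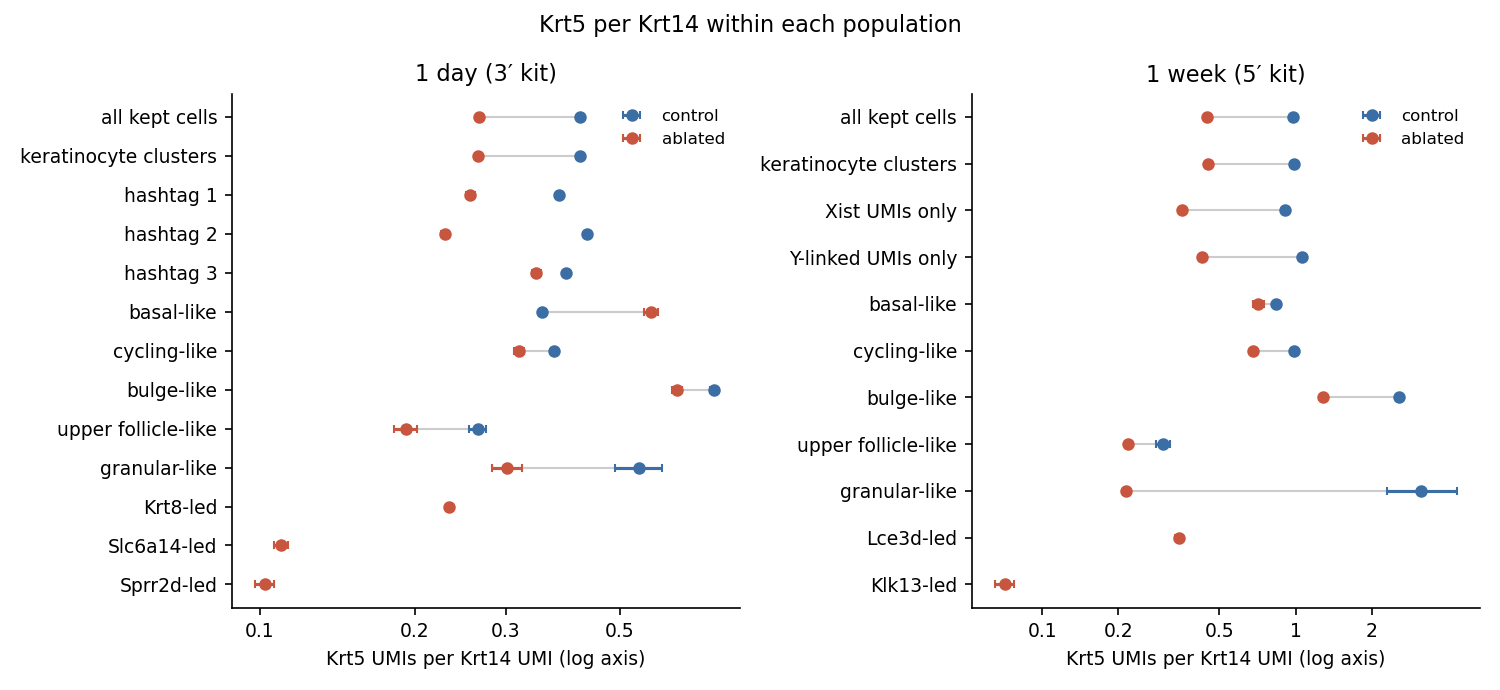
Krt5 UMIs per Krt14 UMI (log axis) in selected populations (the Mt4-led, Cstdc5-led and sebaceous gland-like cells are among those not drawn), control in blue and ablated in red, with 95% counting intervals; rows with 1 point had too few cells in the other library. Ablated points lie to the left of control points in all drawn rows with 2 points but the 1-day basal-like one (0.353 and 0.575).

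Other ratios followed their own course. Krt15 per Krt14 was 0.501 and 0.321 at 1 day and 0.725 and 0.237 at 1 week (control, ablated), but the hashtags overlapped at 0.373, 0.378 and 0.417 against 0.310, 0.135 and 0.414. Krt1 per Krt10 was 0.318 and 0.230 at 1 day, with 0.440 and 0.647 at 1 week. Its hashtags overlapped at 0.380, 0.254 and 0.254 (control) and 0.171, 0.305 and 0.1701 (ablated). The 1-week difference was seen in cells with Y-linked UMIs only (0.394 and 1.49) and not in cells with Xist UMIs only (0.419 and 0.403). Krt77 per Krt10 was 0.506 and 0.741 at 1 day, and the hashtags did not overlap (0.400, 0.587 and 0.622 in control, 0.728, 0.719 and 0.781 in ablated cells), with 0.498 and 0.545 at 1 week. Among cells with at least 5 Krt10 UMIs, 8.85% of 5626 control and 23.5% of 9928 ablated cells had no Krt1 UMI at 1 day, and 3.77% of 3398 and 37.9% of 1021 at 1 week. At 1 week this share was thus higher in the ablated library although Krt1 per Krt10 was higher too, so the share does not stand for the ratio.

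Cell classes found in both libraries of a time point were compared next. They were clustered without any keratin gene and named from markers outside the 7 members. Cycling-like cells carried large differences in all 3 basal keratins at 1 day. From 849 control and 965 ablated cells, Krt14 was at 13299 and 5871 CPM, Krt5 at 4962 and 1870 CPM and Krt15 at 3360 and 940 CPM. These were 3 of 6 eligible members at least 2-fold lower, against 1.38% of genes in that class, and none was 2-fold higher, against 2.49%. At 1 week, 281 control and 279 ablated cycling-like cells held 10149 and 10394 CPM of Krt14 and 10028 and 7066 CPM of Krt5. Krt15 alone was at least 2-fold lower there (5309 to 861 CPM, log2 ratio -2.62), 1 of 6 members against 3.93% of genes. Krt1 was the 1 member 2-fold higher, against 4.63%, at 24.7 and 145 CPM, below its 1-week level in T cell-like clusters (256 and 170 CPM).

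Hair follicle bulge-like cells, the follicle's stem cell region in which Krt15 is a known marker, had Krt15 as their leading member. Krt15 was at 8610 and 5890 CPM at 1 day (3970 control and 2272 ablated cells) and at 13305 and 11631 CPM at 1 week (928 and 848 cells). None of the 6 eligible members was 2-fold lower or higher in these cells at 1 day, where 0.0813% and 1.14% of genes were. At 1 week Krt1 (76.8 to 5.68 CPM) and Krt10 (145 to 59.4 CPM) were 2-fold lower, 2 of 6 against 1.14% of genes, at levels under those of T cell-like clusters. Krt1 was under 10 CPM in the ablated cells and was eligible only through the control cells. No member was 2-fold higher, against 2.26%. Krt14 was at 3096 and 5335 CPM in bulge-like cells at 1 week, a log2 ratio of 0.79.

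Upper hair follicle-like cells had the same signs as the whole library at 1 week for every eligible member but Krt5. No member passed 2-fold there at 1 day, where 0.241% of genes were lower and 1.43% higher. At 1 week, in 439 control and 465 ablated cells, Krt14 was at 1317 and 5455 CPM and Krt5 at 396 and 1192 CPM, 2 of 6 members higher against 4.34% of genes. Krt15 (1570 to 773 CPM), Krt1 (503 to 249 CPM), Krt10 (1604 to 541 CPM) and Krt77 (1151 to 463 CPM) were 4 of 6 members lower, against 1.37%. Krt5 was thus higher in this class while lower in the whole library.

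Basal, spinous and granular classes had too few cells in 1 library for a comparison at 1 week, with 22 ablated basal keratinocyte-like, 9 ablated spinous keratinocyte-like and 44 control granular keratinocyte-like cells. The 801 ablated granular-like cells, led by loricrin and late cornified envelope genes, held 10621.5 CPM of Krt14, 2266 CPM of Krt5 and 5245 CPM of Krt10. These sums cover unlike cells, since 33.7% of the 724 cells used per cell were mostly basal, 25% mixed and 41.3% mostly suprabasal. The 710 granular-like cells of the 1-day ablated library, made with the other kit, held 1142 CPM of Krt14 and 8631 CPM of Krt10. The basal keratinocyte-like class at 1 day held 11422.5 and 5257 CPM of Krt14, 4030 and 3023 CPM of Krt5 and 3814.5 and 3323 CPM of Krt15 (control, ablated). Krt14 was the 1 of 6 eligible members at least 2-fold lower there, against 0.9% of genes, and none was 2-fold higher, against 1.75%. No 1-day cluster was named spinous. An Ivl-led cluster (1039 control and 566 ablated cells) had raised spinous markers, but Ivl, a granular marker, led it and no spinous marker was among its 10 leading genes. It held 26495 and 19926 CPM of Krt10, 19237 and 17602 CPM of Krt77 and 3684 and 1886 CPM of Krt1, a log2 ratio of -0.97 for Krt1. Krt14 was at 259 and 634 CPM there. Without the Krt8-led cluster, the keratinocyte clusters of the 1-day ablated library had a basal share of 27.1% against 41.8% in the control, and Krt14 had a log2 ratio of -0.72.

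**Figure D4:**
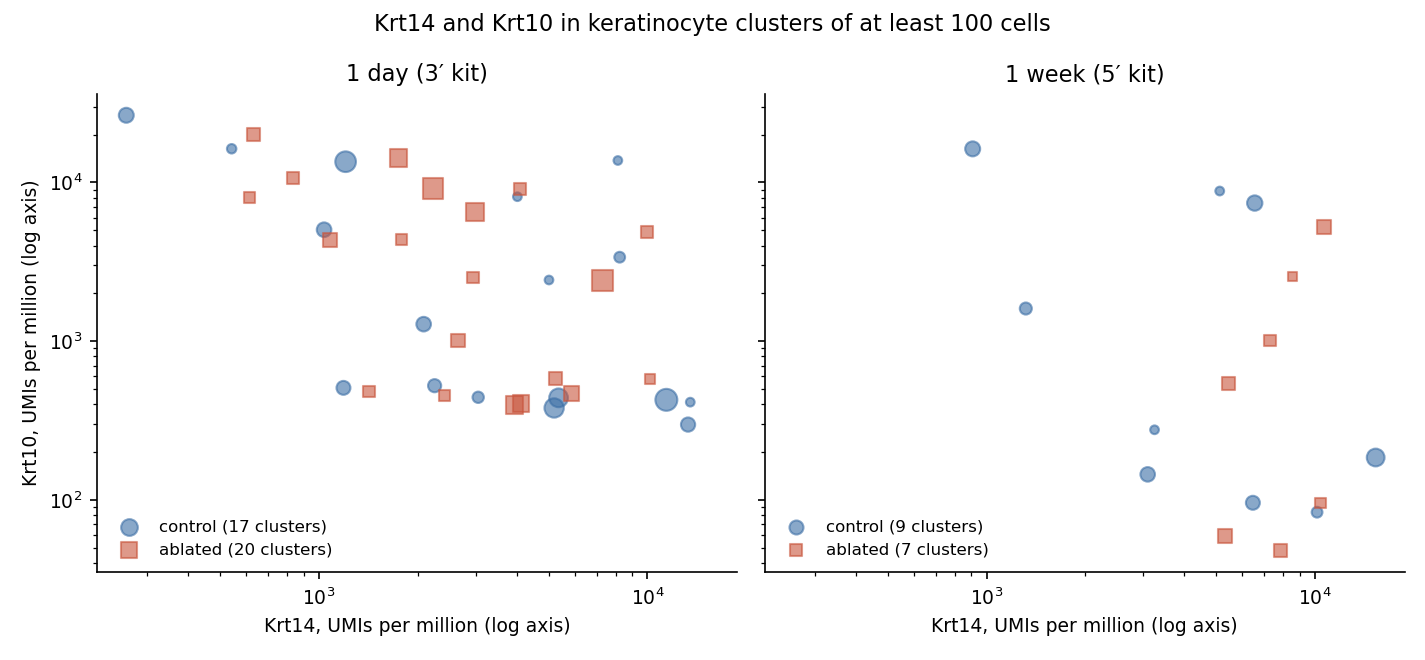
Krt14 (horizontal) against Krt10 (vertical), both in CPM on log axes, in each keratinocyte cluster of at least 100 cells of a library. Point area follows the square root of cell number. At 1 week the control clusters reach down to 908 CPM of Krt14, while the 7 ablated clusters lie between 5335 and 10621.5 CPM.

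Other keratins came from a list of 32, with 29 found and 11 eligible. At 1 day 6 of 11 were at least 2-fold higher and none lower, with a median log2 ratio of 1.02 beside -0.03 over all genes tested, of which 3.51% were that much higher and 1.3% lower. At 1 week 7 of 11 were higher and none lower, against 5.68% and 2.43% of genes, with a median of 1.78 beside 0.05. Krt8 and Krt18 at both times and Krt6b at 1 week were under 10 CPM in the control. They were eligible only through the ablated library, so the filter itself fixed their count as higher, and the medians include them. Higher at both times were the wound-type keratins Krt6a (1.28 and 4.59), Krt6b (3.93 and 12.87) and Krt16 (1.80 and 2.25) and the simple epithelial keratins Krt8 (9.32 and 8.22) and Krt18 (5.85 and 8.49), all as log2 ratios at 1 day and 1 week. The 1-week ratios of Krt6b and Krt18 rest on 13 and 12 control UMIs, with intervals of 12.09 to 13.78 and 7.68 to 9.44, and those of Krt8 on 95 and 79 control UMIs at 1 day and 1 week. Krt6a and Krt6b are near-identical copies, so their division is uncertain. Krt17 was at 1694 and 2237 CPM at 1 day, and its 1-week levels were 2099 and 7221 CPM. The largest log2 ratios below 0 were -0.89 for Krt24 and -0.13 for Krt79 at 1 day, and -0.28 for Krt78 at 1 week. The highest log2 ratios among the 7 members were 0.33 for Krt77 at 1 day and 0.44 for Krt14 at 1 week.

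**Figure D5:**
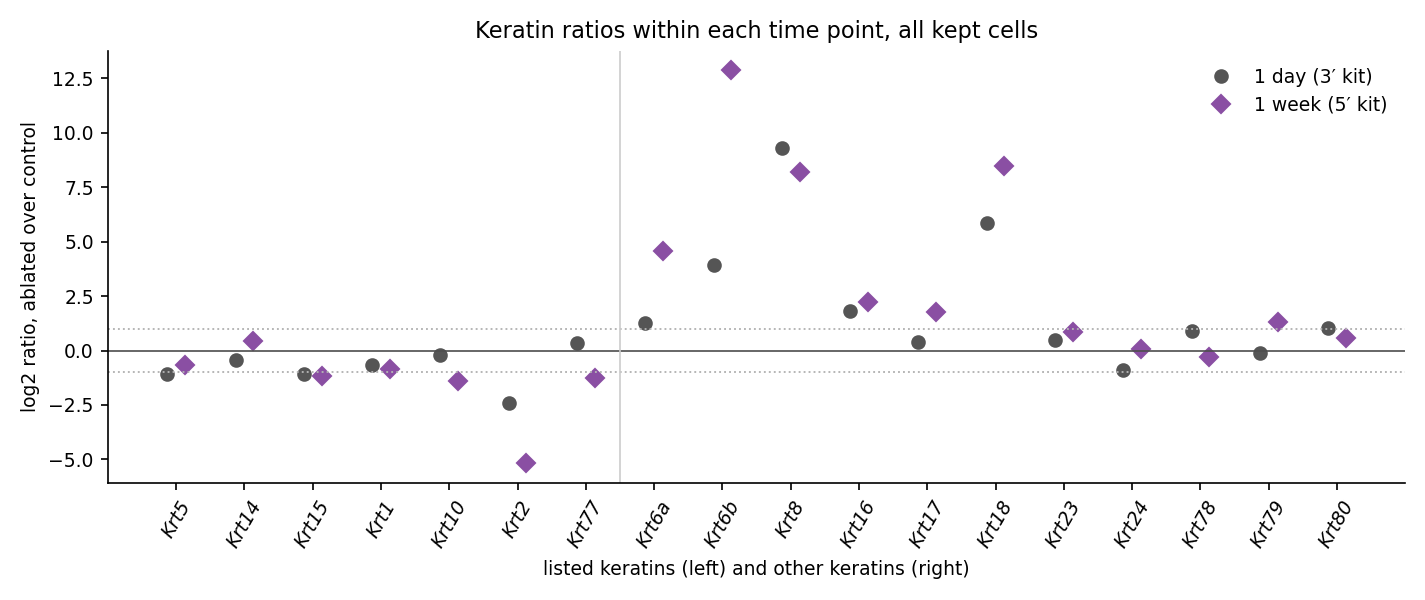
Log2 ratio of ablated over control in all kept cells for the 7 listed keratins (left of the line) and the 11 other eligible keratins (right), at 1 day (circles) and 1 week (diamonds), with dotted lines at 2-fold. The members lie between -5.19 (Krt2) and 0.44 (Krt14), and Krt6b and Krt8 reach 12.87 and 9.32.

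Genes whose proteins anchor or bundle keratin filaments were taken from a list of 22, all found and 19 eligible. At 1 day 1 of 19 was at least 2-fold higher and 2 were lower, against 3.51% and 1.3% of all genes, with a median log2 ratio of -0.09. At 1 week 2 were higher and 4 lower, against 5.68% and 2.43%, with a median of -0.42. The 1-day count of higher partners was near the background. Col17a1 (-1.52 and -1.75) and Dst (-1.18 and -1.57), both parts of hemidesmosomes that tie Krt5 and Krt14 filaments to the basement membrane, were lower at both times. Flg, which bundles keratins in the granular and cornified layers, was higher at both times (3.87 and 4.81). Dsc1, a suprabasal desmosomal cadherin, was at 0.72 and 1.01, and Eppk1, a plakin that binds keratins, was at -0.50 and -2.17.

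Likeness of expression was described over sums of cells by cluster and library, 46 at 1 day and 57 at 1 week. Every cluster with at least 100 cells of a library entered, also clusters of other cell types. At 1 week these sums included the clusters set aside elsewhere for a median under 2500 UMIs. The sums share libraries and differ in depth, so r is a description. Ranked by the lower r of the time points among 9579 genes, Krt5 was most like Itgb4 (0.91 and 0.89), Bcam (0.88 and 0.89) and Krt15 (0.87 and 0.88). The nearest genes of Krt14 were Krt5 (0.72 and 0.81), Pdlim1 (0.75 and 0.71) and Dsg3 (0.70 and 0.82), and those of Krt15 were Krt5, Col17a1 (0.86 and 0.86) and Cxcl14 (0.84 and 0.88). Krt14 had the weakest match among the basal members. Krt1 was nearest to Krt10 (0.91 and 0.90), Dsg1a (0.84 and 0.82) and Calm5 (0.81 and 0.85). Krt10 was nearest to Krt77 (0.96 and 0.95), Krt1 and Fam25c (0.89 and 0.89), and Krt77 to Krt10, Krt78 (0.97 and 0.90) and Fam25c (0.91 and 0.90). Krt2 had only weak matches in Nat8l (0.50 and 0.58), Cyp3a13 (0.62 and 0.48) and Sema3d (0.44 and 0.43). Between the compartments, r of Krt5 with Krt10 was -0.58 at 1 day and 0.24 at 1 week, and r of Krt14 with Krt10 was -0.41 and 0.23.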

How the data were processed

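The values analysed are raw UMI counts as deposited, 1 matrix of genes by barcodes per library. Cell Ranger 5.0.1 and Seurat are named with build mm10 per the submitters' processing notes. The barcode and feature lists hold text, and the antibody hashtag counts at 1 day were used only to split cells. The annotation and the handling of reads shared by gene copies are not given in the sources used here.

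Barcodes were dropped below 500 UMIs or 300 genes or above 15% mitochondrial UMIs, and the highest Scrublet scores (scanpy 1.11.5) were removed at 0.8% per 1000 barcodes. Levels are summed UMIs scaled to CPM with exact Poisson intervals, and log2 ratios and ratios of genes have exact conditional binomial intervals (scipy 1.17.1), all at 95%. A gene was eligible with a mean of at least 10 CPM over the libraries of a time point and was counted at 2-fold or more. Scaling factors of edgeR 4.0.16 (TMM) and DESeq2 1.42.0 were alternatives. Clustering pooled control and ablated cells within a time point and used no keratin gene (2000 variable genes, 30 components, 15 neighbours, Leiden resolution 1, leidenalg 0.10.2). Clusters were named from fixed marker lists. To take a keratinocyte class name, a cluster had to show 3 or more of its markers and average a log2 fold of 1 over all of them, with no other class (cycling aside) having more markers among its 10 leading genes, and a shallow cluster led by none of them stayed unnamed. At 1 week, clusters with a median under 2500 UMIs were set aside unless markers of another cell type averaged a log2 fold of at least 4. Such limits were chosen with the values in view. Cells with Xist UMIs only, or with UMIs of Ddx3y, Eif2s3y, Uty or Kdm5d only, had at least 2 such UMIs and at least 3000 UMIs in all.

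All 7 members are named. From the 2 lists, genes past 2-fold in 1 direction at both times and the 2 largest ratios each way per time point are named, and for likeness the 3 highest Pearson r of log2(CPM + 10) over sums of at least 100 cells. Members and lists were chosen with earlier results of these data known. Intervals and thinning were tested on simulated data. Gene positions and shared stretches are from GENCODE M21 transcripts on GRCm38. A sequence stretch of Krt5 is not reported here.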

Additional observations from a re-analysis of the deposited data

Results flagged for a closer look

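Krt14 and Krt77 differed from control in opposite directions at the 2 time points, and Krt77 also in the 2 kinds of cell, as did the basal shares. Neither difference was tested, because each group is 1 library. The time points also differ in the kit used and in the kinds of cell held. Xist was at 0.0359 and 0.0510 CPM at 1 day (control, ablated) and at 281 and 138 CPM at 1 week. The log2 ratio of Krt14 was 0.87 higher at 1 week (0.44) than at 1 day (-0.43). For Krt77 the 1-week log2 ratio minus that at 1 day was -1.59 (-1.25 and 0.33). The basal share of summed keratin UMIs moved by 13.9 points at 1 week and by -9.68 points at 1 day, a gap of 23.6 points (23.55 before rounding). The share of mostly basal cells moved by 13.6 and -29.0 points, a gap of 42.6 points.

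Within the 1-week libraries, cells with Y-linked UMIs only and cells with Xist UMIs only went opposite ways for Krt77 and for the basal shares. The log2 ratio of Krt77 differed by -3.02 between them (-2.86 and 0.16). The basal share moved by 32.2 points in the first and by -5.31 points in the second, a gap of 37.6 points. The share of mostly basal cells moved by 21.4 and -8.14 points, a gap of 29.5 points.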

How the results depend on the processing

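The basal share of summed UMIs at 1 day was reversed, at 2.505 points, over keratinocyte classes with at least 100 cells in both libraries. It kept its direction under the other alternatives run. Against -9.68 points it was -9.96 with putative doublets, -10.0 with no filter on barcodes, -9.42 with the same lowest UMI count in both libraries, -9.42 in barcodes of at least 3000 UMIs, -7.26 without Krt15 and -16.8 as a mean over cells. It was -14.6 without the Krt8-led cluster. At 1 week, against 13.9 points, the same settings in that order gave 13.1, 13.05, 14.1, 12.9, 18.6 and 11.5, and keratinocyte clusters alone gave 12.6, or 11.6 without the Skint5-led cluster. Classes held by both libraries gave 1.85. Cells with Y-linked UMIs only gave 32.2 and cells with Xist UMIs only gave -5.31, the reverse.

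The 1-day share of mostly basal cells, -29.0 points, was -27.1 in barcodes of at least 3000 UMIs, -24.6 in cells of 1 hashtag, -31.6 without the Krt8-led cluster, -14.2 in classes held by both libraries, -31.8 thinned to 1000 UMIs, -31.25 with at least 10 keratin UMIs and -25.3 with the limit for mostly basal at 67%. The 1-week value, 13.6 points, was 16.4 in barcodes of at least 3000 UMIs, 20.2 with the limit at 67%, 3.66 in classes held by both libraries, 0.858 without the Skint5-led cluster, 21.4 in cells with Y-linked UMIs only and -8.14, the reverse, in cells with Xist UMIs only. The log2 ratio of Krt10 at 1 day was 0.30 as a mean of CPM per cell and that of Krt77 at 1 week 0.16 in cells with Xist UMIs only, both reversed, as was Krt77 at 1 day, -0.20, in classes held by both libraries. With no filter on mean CPM, 954 genes were lower and 1133 higher at 1 day (91 and 245 with it), and 1070 and 2033 at 1 week (198 and 464). TMM factors gave 82 and 258, and 235 and 412. The hashtag, Krt8-led, Skint5-led, shared class, Xist and Y-linked settings were chosen after seeing the data.

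No paired analysis was possible because each group is 1 library. Leaving out a replicate has no meaning here. Krt2 in the 1-week ablated library rests on 23 UMIs. Intervals do not cover differences between animals, digestions or libraries.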
